A study of Mus musculus with 12 samples.

Results

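Cytochrome P450 genes encode haem enzymes that insert an oxygen atom into their substrates. The microsomal members draw electrons from NADPH through the reductase *Por*, and the mitochondrial members draw them through adrenodoxin (*Fdx1*) and its reductase (*Fdxr*). Families with low numbers act mainly on drugs and inhaled or dietary chemicals, whereas others make or break down fatty acid derivatives, retinoic acid, vitamin D, sterols and steroid hormones. In the lung the best known carriers of drug-metabolising P450 enzymes are the club cells of the airway.

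The genes described here are the 28 cytochrome P450 genes, of 16152 genes in the deposited count table, whose symbol is Cyp followed by a family number, at most 1 subfamily letter and a gene number. *Cyp2f2* was left out by the same rule. RNA of whole lungs of wild-type C57BL/6 mice was sequenced at 2 embryonic time-points (E15.5 and E18.5) and 2 postnatal time-points (P5 and P8), with 3 replicates at each of the 4 and no treatment. Both sexes were used. Each time-point was represented by 1 litter, so litter and time-point cannot be told apart, and p-values measure the spread between littermates. The 12 libraries held 41337443 to 53901957 counted reads. Levels are given as CPM, read counts scaled to 1000000 mapped reads, and 1 read was worth 0.0161 to 0.0206 CPM. Only levels compared between genes are divided by exon length (CPM per kb). The 3 comparisons follow the time axis (E15.5 to E18.5, E18.5 to P5 and P5 to P8), and a gene was called when its log2 fold change exceeded 1 in either direction at an edgeR FDR below 0.05. All 28 members passed the filter of 1 CPM in at least 3 libraries. Of these, 15 reached 1 CPM in all 12 libraries, and 8 reached it in postnatal libraries alone (*Cyp1a1*, *Cyp2a5*, *Cyp2b10*, *Cyp2e1*, *Cyp3a13*, *Cyp4f15*, *Cyp4f39* and *Cyp11a1*), so that the direction of these 8 across birth was set by the filter.

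The lung label held in every library: *Nkx2-1*, the transcription factor of lung epithelium, was at 177, 177 and 204 CPM (E15.5), 237, 220.4 and 191 (E18.5), 136, 145 and 140.2 (P5) and 138, 138 and 157 (P8). Some libraries carried markers of neighbouring tissue. The summed CPM of 18 hepatocyte genes was 4.29 to 10.5 in the 9 libraries from E15.5 to P5, against 20.1, 147 and 51.7 at P8, and 16 of the 18 were highest in P8 replicate 2. Albumin (*Alb*) alone was at 7.31, 70.7 and 22.7 CPM in the P8 libraries. Thymocyte markers summed to 129, 255 and 9.81 at P8, and in P8 replicates 1 and 2 the keratins of stratified epithelium (727 and 552), brown fat genes (357 and 728) and secretory genes of the upper airway (504 and 543) stood above P8 replicate 3 (3.58, 14.9 and 124). Brown fat genes also summed to 21.9 and 131 CPM in P5 replicates 2 and 3. Heart muscle genes summed to 615, 673 and 18.1 at E15.5 and to 33.4, 28.6 and 12.9 at E18.5. They summed to 68, 161 and 98.1 at P5 and to 76.9, 219 and 62.5 at P8. Calls from P5 to P8 are therefore also given without P8 replicates 1 and 2, and calls from E15.5 to E18.5 without E15.5 replicates 1 and 2. Calls from E18.5 to P5 were refitted without each single library, but not without P5 replicates 2 and 3 together.

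None of the 28 members was high mainly in P8 replicate 2: 0 reached 3 times the level of every other library, and the largest ratio of P8 replicate 2 to the highest other library was 1.30, for *Cyp1b1*. Against the other P8 libraries alone the largest ratio was also 1.30, for *Cyp2r1*. The P450 genes that did stand out in that library lay outside the count table, at below 1 CPM. The same symbol pattern held for 93 genes of the wider CPM table, of which 65 were not in the count table. Of these 65, 23 had at most 3 reads in any library, including 8 with no read, and 42 had more than 3 reads in at least 1 library. Of these 42, 26 were highest in P8 replicate 2, and 8 were there at least 3 times above every other library. The same shares over all genes outside the count table are not given here, so these counts show nothing particular to P450 genes. *Cyp3a11*, a main drug-metabolising P450 of liver, had no read in the 9 libraries before P8 and 0, 43 and 7 reads at P8. *Cyp2d26* was at 0.103, 0.915 and 0.148 CPM (P8). In both, as in the summed hepatocyte markers, P8 replicate 2 was highest and replicate 1 lowest of the P8 libraries. *Cyp3a44* (0, 19 and 3 reads at P8) had the same order. The others of the 8 did not. *Cyp2c65* (5, 23 and 0 reads) and *Cyp2j7* (2, 9 and 0) were lowest in replicate 3. *Cyp2c68*, *Cyp3a59* and *Cyp2b9* had reads at P8 in replicate 2 alone.

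**Figure D1:**
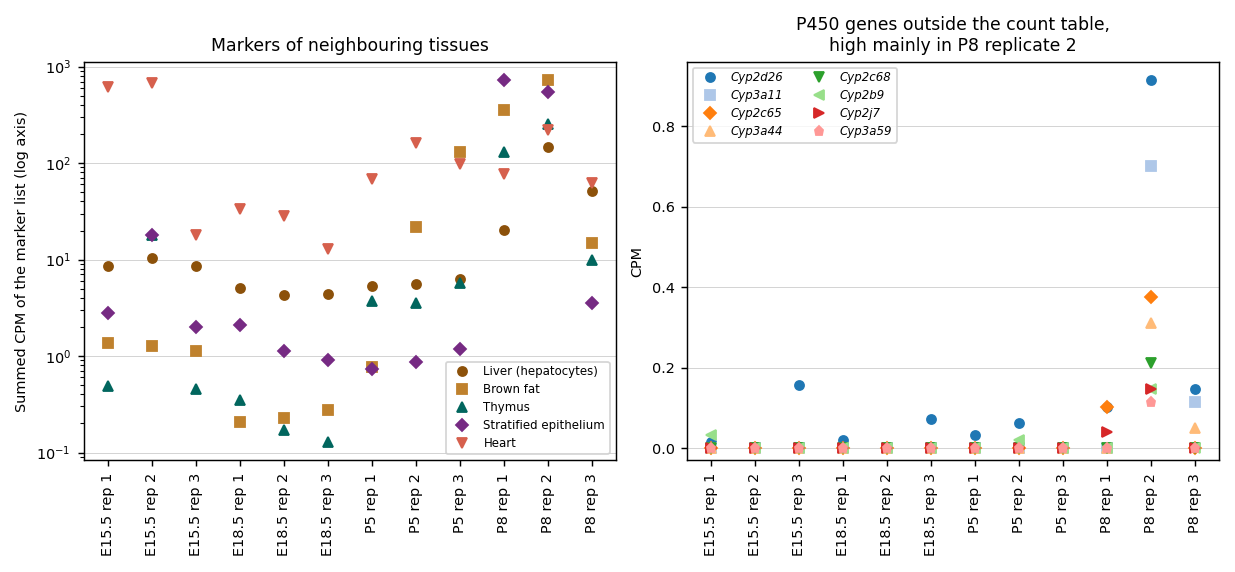
Left, summed CPM (log axis) of marker lists of 5 neighbouring tissues in each of the 12 libraries. Right, CPM of the 8 P450 genes outside the count table that were at least 3 times higher in P8 replicate 2 than in any other library. Hepatocyte markers reached 147 CPM in P8 replicate 2 and *Cyp2d26* 0.915 CPM, whereas brown fat and stratified epithelium markers were high in P8 replicates 1 and 2.

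Together the 28 members summed to 245 ± 2.11 CPM (E15.5), 261 ± 12.2 (E18.5), 365 ± 14.9 (P5) and 454 ± 25.5 (P8; each mean ± SD, n = 3). The make-up of these reads shifted. *Cyp51* held 33.3% ± 0.715 of them at E15.5 and 8.14% ± 0.665 at P8, and *Cyp4b1* with *Cyp2s1* went from 4.50% ± 0.434 to 40.5% ± 1.59. Per kb of exon, the order at E15.5 was led by *Cyp20a1* (18.9 ± 0.247 CPM per kb), *Cyp51* (18.499 ± 0.253) and *Cyp39a1* (11.2 ± 0.237), with the first pair overlapping in range. At P8 it was led by *Cyp4b1* (41.6 ± 6.35), then *Cyp2s1* (18.3 ± 1.5) and *Cyp20a1* (16.3 ± 0.879), where the last pair overlapped. *Cyp4b1* was eighth at E15.5 (1.94 ± 0.331 CPM per kb).

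**Figure D2:**
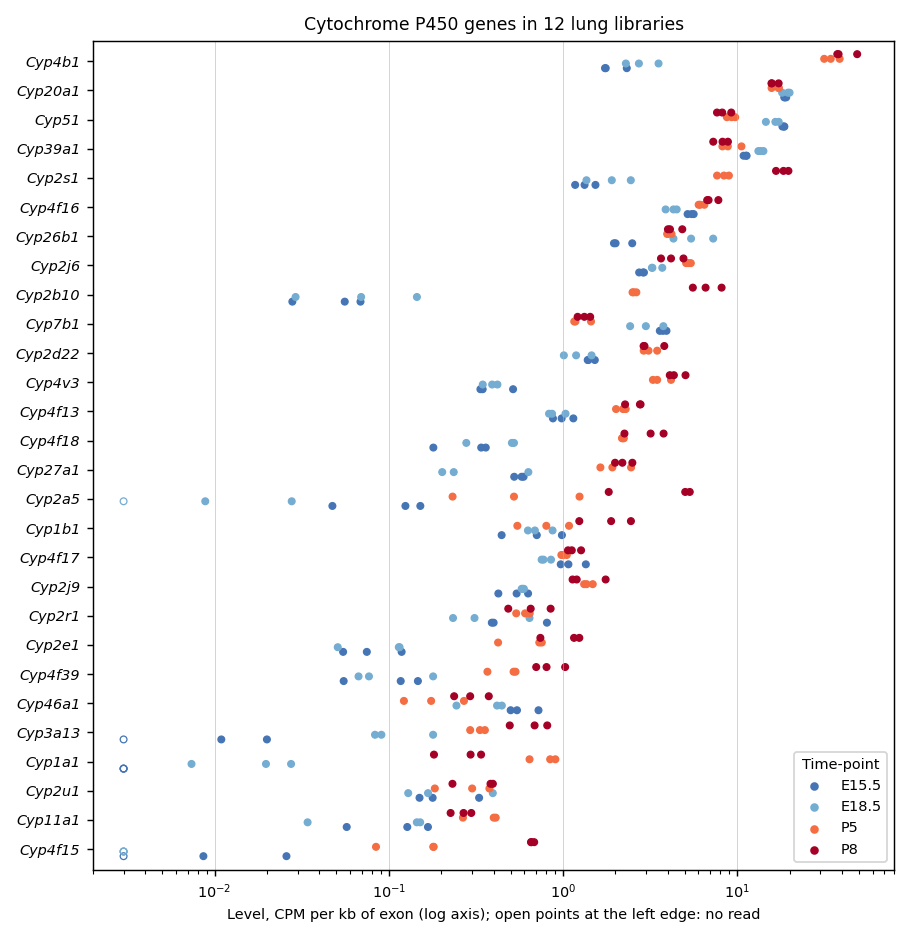
Level of each of the 28 cytochrome P450 genes in CPM per kb of exon (log axis), 1 point per library, coloured by time-point and ordered by the mean over the 12 libraries; open points at the left edge are libraries without a read. *Cyp4b1* moved from 1.94 ± 0.331 CPM per kb at E15.5 to 41.6 ± 6.35 at P8, whereas the points of *Cyp20a1* stayed close together at all 4 time-points.

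Across birth, from E18.5 to P5, 16 of the 28 members rose and 1, *Cyp7b1*, fell, so 60.7% were called. Over all 15994 genes tested the share called was 26.8%, with 17.5% higher and 9.34% lower. The 8 members kept through postnatal libraries alone were all among the 16, and among the other 20 members 8 rose and 1 fell. Not all of the 20 were free of the filter. *Cyp4f18* and *Cyp2r1* reached 1 CPM in 2 embryonic libraries each and passed only with their postnatal ones. *Cyp4f18* was among the 8 that rose. The median log2 fold change of these 20 was 0.66, against 0.00 over all genes tested, and that of all 28, which holds the 8 whose direction the filter set, was 1.40. In the same step all 5 club cell markers and all 5 alveolar type 2 cell markers rose, with the club cell list going from a summed CPM of 148, 141 and 95.8 at E18.5 to 4619, 5484 and 5590.1 at P5, and 7599, 8449 and 8793 at P8, and the alveolar type 2 list from 1519.5, 2058 and 1186 at E18.5 to 18239, 16385 and 15612 at P5, and 14602, 13578 and 16250.2 at P8. In RNA of whole lungs more cells of a type and more RNA per cell cannot be told apart, and the part of cell numbers in these rises was not tested. Before birth, from E15.5 to E18.5, 3 members were called higher and 0 lower (10.7%, against 3.04% of all genes, 1.59% higher and 1.46% lower). Between P5 and P8, 5 were called higher and 1 lower (21.4%, against 2.96% of all genes, 2.88% higher and 0.0875% lower). The 8 members kept through postnatal libraries alone gave 2 of the 3 calls before birth, and 3 rises and the 1 fall from P5 to P8. Among the other 20 members, 1 was called higher before birth, and 2 were called higher and 0 lower from P5 to P8.

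**Figure D3:**
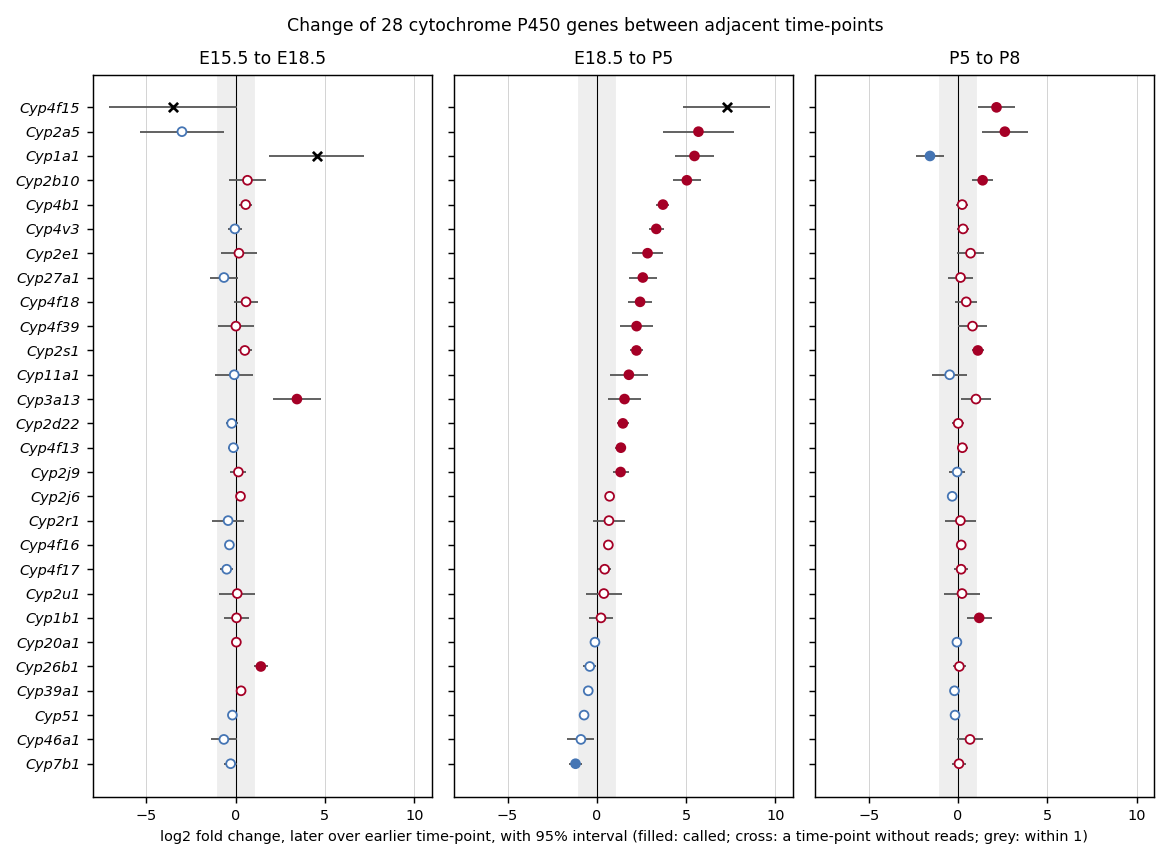
log2 fold change (later over earlier time-point) of the 28 members with 95% intervals in the 3 comparisons, ordered by the change from E18.5 to P5; filled points were called, open points were not, and crosses mark members without a read at 1 of the 2 time-points, whose fitted value is no bound. The middle panel holds 16 members called higher (*Cyp4f15* as a cross) and 1 lower, the left panel 3 called members (*Cyp1a1* as a cross) and the right panel 6.

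Of the 8 members that act on drugs and other foreign chemicals, all of families 1 to 3, 7 rose from E18.5 to P5. In that step 17.5% of all genes were higher. From P5 to P8, 4 rose and 1 fell, where 2.88% of all genes were higher and 0.0875% lower. Of these later calls, 2 of the 4 rises and the 1 fall were of members kept through postnatal libraries alone. Of the 7 that rose across birth, 5 were kept through postnatal libraries alone, and the 3 others of the 8 (*Cyp1b1*, *Cyp2d22* and *Cyp2s1*) had a median log2 fold change of 1.46 in that step. *Cyp2s1*, a P450 of airway and other epithelia outside the liver (chr7:25802475-25816913, GRCm38, minus strand), was already at several CPM before birth. It was at 6.57, 7.59 and 5.8 CPM (E15.5), 12.1, 9.42 and 6.74 (E18.5), 41.5, 44.3 and 37.9 (P5) and 82.6, 97.3 and 91.2 (P8). The embryonic time-points overlapped, the postnatal ones lay apart from them and from each other, and *Cyp2s1* rose 4.65-fold from E18.5 to P5 (log2 fold change 2.22 ± 0.17 (SE), edgeR FDR = 2.07e-07) and 2.16-fold again to P8 (log2 fold change 1.11 ± 0.16 (SE), edgeR FDR = 0.00205). It was the only member still called from P5 to P8 without P8 replicates 1 and 2 (1.12, edgeR FDR = 0.0441), a setting in which 0.324% of all genes were called.

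*Cyp2b10*, the phenobarbital-inducible P450 controlled by the receptor CAR, lies near *Cyp2s1* on chromosome 7 (chr7:25897620-25926624, plus strand). Its level was 0.145, 0.118 and 0.059 CPM (E15.5), 0.0616, 0.306 and 0.146 (E18.5), 5.3, 5.57 and 5.37 (P5) and 11.8, 17.2 and 13.9 (P8). All 6 embryonic libraries were below 0.31 CPM and the 3 at P5 were nearly alike. The rise across birth was 32.9-fold (log2 fold change 5.04 ± 0.36 (SE), edgeR FDR = 9.38e-08), followed by 2.6-fold to P8 (log2 fold change 1.38 ± 0.27 (SE), edgeR FDR = 0.00676). Without P8 replicates 1 and 2 the second step had nearly the same size but was not called (log2 fold change 1.33, edgeR FDR = 0.102). The gene of CAR, *Nr1i3*, had at most 0.0619 CPM in any library.

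*Cyp2a5*, the coumarin hydroxylase of the mouse (chr7:26835305-26843548, plus strand), was read 0, 3 and 1 times at E18.5. Its levels were 0.258, 0.315 and 0.0983 CPM (E15.5), 0, 0.0574 and 0.0183 (E18.5), 0.482, 2.58 and 1.08 (P5) and 11.1, 10.4 and 3.8 (P8). The 3 libraries of each postnatal time-point spread widely, and P8 replicates 1 and 2 stood well above P8 replicate 3. *Cyp2a5* rose from E18.5 to P5 (edgeR FDR = 0.000119). Summed over the libraries this was 4 reads against 221, a ratio of 50.1 per mapped read (exact 95% interval 19.3 to 186, counting error only). It rose again from P5 to P8 (log2 fold change 2.62 ± 0.59 (SE), edgeR FDR = 0.0121). Without P8 replicates 1 and 2 the last value was 1.46, edgeR FDR = 0.325. Leaving out P5 replicate 3 alone also ended the P5 to P8 call. *Cyp2a5* reached 1 CPM in 2 P5 and 3 P8 libraries. It thus passed the filter only with P8, where it was higher, which favours a rise in this step. In P8 replicates 1, 2 and 3 *Alb* was at 7.31, 70.7 and 22.7 CPM. The part of liver, upper airway, brown fat and stratified epithelium RNA in the *Cyp2a5* level was not tested. In the annotation 11.8% of the read-length stretches of *Cyp2a5* also occur in other genes, mainly *Cyp2a4*, the highest share of any member, and its level is uncertain to that extent.

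Both family 1 genes are classic targets of the aryl hydrocarbon receptor AhR, which binds DNA together with ARNT. *Cyp1a1*, which oxidises polycyclic aromatic hydrocarbons, had 0, 0 and 0 reads at E15.5, 1, 4 and 3 at E18.5, 157, 114 and 109 at P5 and 46, 31 and 50 at P8. It was barely detected before birth, highest at P5 and lower again at P8, without overlap between these groups. The step from E15.5 to E18.5 was called at an edgeR FDR of 0.0244, and without E15.5 replicates 1 and 2 this was 0.209. The call also ended without E15.5 replicate 1, E15.5 replicate 2 or E18.5 replicate 2. No fold is given since E15.5 had no read and E18.5 at most 4. Across birth the gene rose (edgeR FDR = 2.66e-06), from 8 summed reads to 380, a ratio of 43.1 per mapped read (exact 95% interval 21.6 to 100.5, counting error only). *Cyp1a1* reached 1 CPM in 3 P5 libraries and 1 P8 library. It thus passed the filter only with P5, where it was higher, which favours a fall in the next step. From P5 to P8 it fell (log2 fold change -1.57 ± 0.36 (SE), edgeR FDR = 0.0171). This fall was no longer called without P8 replicate 2 (-1.34, edgeR FDR = 0.0622), without P8 replicates 1 and 2 (-1.47, edgeR FDR = 0.184), without P5 replicate 1 or without P5 replicate 2.

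*Cyp1b1*, which also oxidises oestradiol and retinol and is expressed in mesenchyme, was at 4.13, 5.76 and 2.6 CPM (E15.5), 5.09, 3.68 and 4.03 (E18.5), 3.2, 4.69 and 6.33 (P5) and 11, 14.3 and 7.25 (P8). The E15.5, E18.5 and P5 ranges overlapped and only P8 lay above P5. Between P5 and P8 it rose (log2 fold change 1.19 ± 0.32 (SE), edgeR FDR = 0.0249), and without P8 replicates 1 and 2 the value was 0.59, edgeR FDR = 0.489. Leaving out P8 replicate 1 or 2, or P5 replicate 1 or 2, each ended the call. The family 1 genes thus moved in opposite directions from P5 to P8, and both calls rested on single libraries. *Ahr* itself rose across birth, from 65.7, 64.3 and 53.5 CPM (E18.5) to 148, 157 and 143 (P5) (log2 fold change 1.38 ± 0.12 (SE), edgeR FDR = 5.78e-07), and was at 124, 119 and 156 at P8. The repressor *Ahrr* was below 2.2 CPM throughout.

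The windows below hold the core letters bound by AhR or the TATA box of the general transcription machinery. They are a selection of the matches, all in front of members that rose after E18.5. Of the 28 members 23 had a promoter entry in RefSeq (GRCm38.p6, 250 bases before to 50 after the start). The AhR core GCGTG, on either strand, occurred in 11 of the 23 (47.8%) and in 32.4% of all 32851 promoters. Besides the members printed, the 11 include *Cyp2j9*, *Cyp4f39* and *Cyp4v3*, which rose across birth. They also include *Cyp20a1*, *Cyp2r1*, *Cyp46a1*, *Cyp4f16* and *Cyp51*, which were called in no comparison. Matches in these members, and another match in *Cyp2b10*, are not printed. The TATA box letters TATAAA, on either strand, occurred in 4 of the 23 (17.4%: *Cyp1a1*, *Cyp26b1*, *Cyp2a5* and *Cyp2e1*) and in 13.6% of all promoters. For both motifs the members were counted per gene and all promoters per entry, so the shares differ in unit. The motifs do not overlap each other in the windows printed. A match of letters is a description and not evidence of a bound site. Each window holds 30 bases on the strand of the gene, 5′ to 3′, with the motif in capitals, and CACGC is GCGTG read on the other strand.
Cyp1a1 AhR core (chr9:57697547-57697576, plus strand): tcagataaggagGCGTGgccaacagacaca
Cyp1a1 TATA box (chr9:57697571-57697600, plus strand): gacacagagtccTATAAAggtggtggtgcc
Cyp1b1 AhR core (chr17:79715120-79715149, minus strand): cgtcccgcccctCACGCcccaccccctaag
Cyp2b10 AhR core (chr7:25897628-25897657, plus strand): agcataaaagatcctgctggaGCGTGgagt
Cyp2a5 TATA box (chr7:26835298-26835327, plus strand): tgtctctggatgTATAAAagcaagctaatt
Cyp2e1 TATA box (chr7:140763776-140763805, plus strand): tcaacgacacgtTATAAAatccttgtttct

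**Figure D4:**
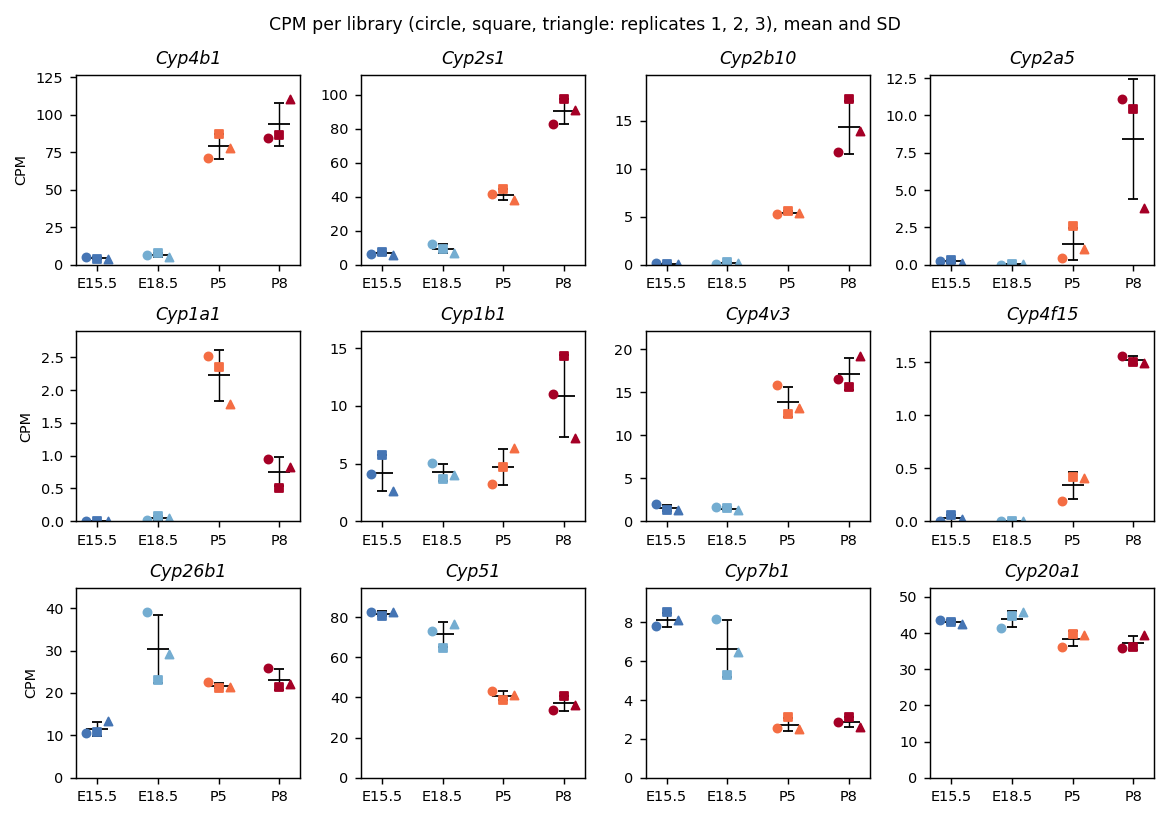
CPM per library of 12 members at the 4 time-points (circle, square and triangle for replicates 1, 2 and 3), with mean and SD in black; each panel has its own axis from 0. *Cyp4b1* and *Cyp4v3* rose across birth and were not called from P5 to P8, *Cyp2s1* and *Cyp2b10* rose in both steps after E18.5, *Cyp1a1* was highest at P5, and all postnatal libraries of *Cyp51* and *Cyp7b1* lay below the embryonic ones.

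The other 3 of the 8 members that act on foreign chemicals also rose across birth. *Cyp2e1*, the P450 of ethanol and small solvents, was at 0.161, 0.118 and 0.256 CPM (E15.5), 0.246, 0.249 and 0.11 (E18.5), 0.915, 1.63 and 1.58 (P5) and 1.6, 2.68 and 2.5 (P8) and rose from E18.5 to P5 (log2 fold change 2.84 ± 0.41 (SE), edgeR FDR = 4.44e-05). *Cyp2d22*, of the drug-metabolising 2D subfamily, was expressed before birth as well. Its level was 5.42, 5.96 and 5.47 CPM (E15.5), 5.71, 4.65 and 3.96 (E18.5), 11.4, 13.6 and 12.1 (P5) and 11.3, 11.5 and 14.9 (P8), with a rise of 2.74-fold across birth (log2 fold change 1.46 ± 0.15 (SE), edgeR FDR = 2.78e-06) and a log2 fold change of 0.01 from P5 to P8. *Cyp3a13*, the 3A member with expression outside the liver, was at 0.0323, 0 and 0.059 CPM (E15.5), 0.246, 0.268 and 0.531 (E18.5), 0.867, 1.05 and 0.986 (P5) and 2.03, 2.4 and 1.46 (P8). The 4 time-points did not overlap. It was called from E15.5 to E18.5 (edgeR FDR = 0.00333), where 5 summed reads stood against 55, a ratio of 11.6 per mapped read (exact 95% interval 4.67 to 37, counting error only). It was called again across birth (log2 fold change 1.55 ± 0.42 (SE), edgeR FDR = 0.00542) and was not called from P5 to P8 (log2 fold change 1.005 ± 0.39 (SE), edgeR FDR = 0.0917). Without E15.5 replicates 1 and 2 the first step was not called (edgeR FDR = 0.083).

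The 11 members that act on fatty acids and eicosanoids (family 4, the 2J subfamily and *Cyp2u1*) gave 7 calls across birth, all higher, where 26.8% of all genes were called and 17.5% were higher. *Cyp4f15* and *Cyp4f39* were among the 7 and were kept through postnatal libraries alone. The other 9 had 5 calls and a median log2 fold change of 1.33. They include *Cyp4f18*, called higher, which passed the filter only with its postnatal libraries. *Cyp4b1*, the lung P450 that hydroxylates fatty acids and activates the pneumotoxin ipomeanol (chr4:115624725-115647723, minus strand), went from 2.85 ± 0.63 to 35 ± 3.61 CPM per kb across birth. Its libraries were at 5.25, 3.97 and 3.93 CPM (E15.5), 6.16, 7.98 and 5.18 (E18.5), 71.3, 87.5 and 77.8 (P5) and 84.8, 86.3 and 110.3 (P8). Every postnatal library lay above 71 CPM and every embryonic one below 8. The step across birth was 13-fold (log2 fold change 3.70 ± 0.17 (SE), edgeR FDR = 3.63e-09). From P5 to P8 the ranges overlapped and the gene was not called (log2 fold change 0.23 ± 0.15 (SE), edgeR FDR = 0.287). *Cyp4v3*, an omega-hydroxylase of fatty acids (chr8:45304944-45333216, minus strand), followed the same course, at 1.97, 1.32 and 1.28 CPM (E15.5), 1.6, 1.49 and 1.32 (E18.5), 15.9, 12.5 and 13.2 (P5) and 16.5, 15.6 and 19.2 (P8). Its rise across birth was 10.04-fold (log2 fold change 3.33 ± 0.19 (SE), edgeR FDR = 1.77e-08) and the following step was not called (log2 fold change 0.28).

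The Cyp4f genes, which hydroxylate leukotrienes and long fatty acids, include 5 members within chr17:32452723-32947402 on chromosome 17, and *Cyp4f18* on chromosome 8. *Cyp4f15* had 0, 3 and 1 reads at E15.5, 0, 0 and 0 at E18.5, 12, 20 and 25 at P5 and 76, 92 and 91 at P8. Against a floor of 3 reads per library it was at least 5.84-fold higher at P5 than at E18.5 (edgeR FDR = 0.000139), and it rose again to P8 (log2 fold change 2.16 ± 0.47 (SE), edgeR FDR = 0.0138). Since *Cyp4f15* reached 1 CPM in the 3 P8 libraries alone, its direction from P5 to P8 was set by the filter too. It did not pass the filter once any P8 library was left out, and has no value there. *Cyp4f18*, the leukotriene hydroxylase of neutrophils, was at 0.629, 0.668 and 0.334 CPM (E15.5), 0.944, 0.517 and 0.971 (E18.5), 4.05, 4.15 and 4.09 (P5) and 5.91, 4.18 and 7.02 (P8) and rose across birth (log2 fold change 2.42 ± 0.31 (SE), edgeR FDR = 1.57e-05). *Cyp4f39*, related to the enzyme that makes the very long hydroxy fatty acids of the skin barrier, was at 0.42, 0.157 and 0.334 CPM (E15.5), 0.513, 0.191 and 0.22 (E18.5), 1.53, 1.49 and 1.05 (P5) and 2.3, 2.94 and 2.01 (P8) (log2 fold change 2.22 ± 0.43 (SE), edgeR FDR = 0.000489 across birth). It too was kept through its postnatal libraries. *Cyp4f13* was at 3.89, 4.36 and 5.09 CPM (E15.5), 3.69, 4.59 and 3.85 (E18.5), 10.2, 9.83 and 8.96 (P5) and 10.1, 12.3 and 12.4 (P8) (log2 fold change 1.34 ± 0.14 (SE), edgeR FDR = 2.91e-06 across birth), with all postnatal libraries above all embryonic ones.

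*Cyp4f16* was expressed at all stages, at 15.9, 17.3 and 16.8 CPM (E15.5), 11.9, 13.2 and 13.8 (E18.5), 19.9, 18.46 and 18.8 (P5) and 20.7, 21 and 23.9 (P8). It dipped at E18.5 and was higher again at P5, without overlap between adjacent time-points, but both changes stayed under the fold cutoff (log2 fold changes -0.36, edgeR FDR = 0.0145, and 0.64, edgeR FDR = 2.82e-05). *Cyp4f17* and *Cyp2u1* were at 2.41 to 4.33 and 0.678 to 2.07 CPM in the 12 libraries and were called in none of the 3 comparisons. Of *Cyp4f16*, 5.84% of the read-length stretches are shared with other genes, mainly *Cyp4f37*, and of *Cyp2u1* 8.57%. Among the abundant members the shares were 1.48% for *Cyp51* (with *Akap9*), 3.22% for *Cyp2s1*, 3.32% for *Cyp4b1* and 5.74% for *Cyp4v3*, and whether counting used the strand is not given in the sources used here.

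The arachidonic acid epoxygenases of the 2J subfamily are neighbours on chromosome 4. *Cyp2j6* was at 10.4, 10.5 and 9.87 CPM (E15.5), 11.8, 13.4 and 11.7 (E18.5), 18.9, 18.4 and 19.5 (P5) and 13.2, 15 and 17.7 (P8). It was higher at P5 than at E18.5 without overlap (log2 fold change 0.71, edgeR FDR = 4.74e-05) and lower at P8 than at P5 (log2 fold change -0.33, edgeR FDR = 0.0453), both under the fold cutoff. Without P8 replicate 2 the later log2 fold change was -0.30 (edgeR FDR = 0.139), and without P8 replicates 1 and 2 it was -0.12. *Cyp2j9* was at 1.42, 1.81 and 2.1 CPM (E15.5), 1.99, 1.93 and 1.96 (E18.5), 4.42, 4.56 and 4.95 (P5) and 4.0, 3.79 and 5.87 (P8) and rose across birth (log2 fold change 1.33 ± 0.21 (SE), edgeR FDR = 8.79e-05). The hydrolases that take over the epoxides rose as well. *Ephx1*, the microsomal epoxide hydrolase, went from 4.02, 5.02 and 2.98 CPM (E18.5) to 27.2, 30.4 and 25.2 (P5), and 40.9, 45.2 and 50.7 (P8) (log2 fold change 2.87 ± 0.20 (SE), edgeR FDR = 7.63e-08 across birth). The soluble hydrolase *Ephx2* was called higher in both steps after E18.5 (edgeR FDR = 0.0495 and 0.0431). It was at 3.12, 2.99 and 3.19 CPM (E18.5), 4.8, 5.39 and 10.1 (P5) and 19.8, 37.5 and 5.47 (P8). At P8 it was high in the same 2 libraries as the brown fat markers. At P5 it was highest in replicate 3, as were the brown fat markers. The part of brown fat RNA in these levels was not tested.

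Of 5 members that act on sterols, 1 rose and 1 fell across birth, their median log2 fold change was -0.72, and at an FDR below 0.05 without the fold cutoff 4 were lower and 1 higher. By that looser rule 23 of the 28 members differed in this step, against 71.1% of all genes. *Cyp51*, the lanosterol demethylase of cholesterol synthesis (chr5:4081145-4104746, minus strand), was at 82.3, 80.4 and 82.3 CPM (E15.5), 73.2, 64.6 and 76.5 (E18.5), 43, 38.6 and 41.1 (P5) and 33.8, 40.9 and 36.3 (P8). All postnatal libraries lay below all embryonic ones, with a log2 fold change of -0.72 ± 0.08 (SE, edgeR FDR = 5.69e-06) that stayed under the fold cutoff. *Srebf2*, the transcription factor of cholesterol synthesis genes, was also lower at P5 (log2 fold change -0.50, edgeR FDR = 5.30e-05).

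*Cyp7b1*, the hydroxylase that clears oxysterols (chr3:18071950-18243338, minus strand), was at 7.8, 8.51 and 8.12 CPM (E15.5), 8.17, 5.26 and 6.48 (E18.5), 2.55, 3.14 and 2.51 (P5) and 2.87, 3.1 and 2.63 (P8). Embryonic and postnatal libraries did not overlap, and the fall across birth was the only one called among the 28 in this step (log2 fold change -1.20 ± 0.18 (SE), edgeR FDR = 5.39e-05). *Cyp39a1*, an oxysterol hydroxylase as well, was at 34.6, 34.4 and 33.3 CPM (E15.5), 41.6, 43.2 and 40.4 (E18.5), 27, 32.3 and 25.1 (P5) and 22.3, 25.2 and 27 (P8). It was highest at E18.5 and its changes stayed under the fold cutoff (log2 fold changes 0.30, edgeR FDR = 0.0266, and -0.48, edgeR FDR = 0.000245). *Cyp27a1*, the mitochondrial sterol hydroxylase that opens the acidic route to bile acids, was at 1.29, 1.26 and 1.14 CPM (E15.5), 1.38, 0.44 and 0.513 (E18.5), 3.56, 5.35 and 4.17 (P5) and 5.44, 4.33 and 4.77 (P8) and rose across birth instead (log2 fold change 2.57 ± 0.36 (SE), edgeR FDR = 4.06e-05). *Cyp46a1*, the cholesterol hydroxylase best known from neurons, lay between 0.401 and 2.38 CPM and was called in no comparison.

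*Cyp26b1*, which degrades retinoic acid (chr6:84571414-84593908, minus strand), was the member with the clearest change before birth. Its level was 10.5, 10.7 and 13.4 CPM (E15.5), 39, 23.1 and 29.1 (E18.5), 22.5, 21.2 and 21.5 (P5) and 25.9, 21.4 and 22 (P8). All later libraries lay above E15.5, and E18.5 held both the highest library and the widest spread. The gene rose 2.65-fold from E15.5 to E18.5 (log2 fold change 1.41 ± 0.18 (SE), edgeR FDR = 0.000779) and was still called without E15.5 replicates 1 and 2 (log2 fold change 1.18, edgeR FDR = 0.0378). After birth it was not called (log2 fold changes -0.40, edgeR FDR = 0.0539, and 0.07). Of the retinoic acid receptors *Rarb* fell across birth (log2 fold change -1.22 ± 0.11 (SE), edgeR FDR = 6.94e-07).

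*Cyp11a1*, the side-chain cleavage enzyme that starts steroid synthesis, was at 0.613, 0.806 and 0.275 CPM (E15.5), 0.164, 0.727 and 0.696 (E18.5), 1.97, 1.28 and 1.92 (P5) and 1.09, 1.29 and 1.43 (P8). It was called higher across birth (log2 fold change 1.79 ± 0.48 (SE), edgeR FDR = 0.00496). Of 4 adrenal cortex markers, *Star* was at 1.95 to 4.42 CPM in the 12 libraries, and *Mc2r*, *Hsd3b1* and *Nr5a1* had at most 0.0642, 0.0323 and 0.230 CPM in any of them. *Cyp2r1*, a vitamin D hydroxylase, lay between 0.494 and 1.80 CPM and was called in no comparison, although the vitamin D receptor *Vdr* rose across birth (log2 fold change 1.85 ± 0.18 (SE), edgeR FDR = 1.21e-06). *Cyp20a1*, whose substrate is not settled, changed little, at 43.7, 43.1 and 42.6 CPM (E15.5), 41.5, 44.8 and 45.7 (E18.5), 36.1, 39.7 and 39.6 (P5) and 36, 36.2 and 39.6 (P8). All its postnatal libraries lay below all embryonic ones. The largest log2 fold change of *Cyp20a1* between adjacent time-points was -0.11 across birth (edgeR FDR = 0.111), with a 95% interval of -0.23 to 0.02.

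Among genes that serve P450 enzymes, of 11 tested electron donors and partners, 1, the reductase *Por*, was called across birth (26.8% of all genes were), and 0 were called in the other 2 comparisons. *Por* was at 57.5, 57.2 and 52.2 CPM (E15.5), 55, 52.7 and 49.2 (E18.5), 95.7, 109 and 98.4 (P5) and 169.6, 186 and 174 (P8), with a log2 fold change of 1.03 ± 0.06 (SE, edgeR FDR = 2.82e-08) across birth and 0.79 ± 0.06 (edgeR FDR = 6.30e-05), under the fold cutoff, from P5 to P8. Its E18.5, P5 and P8 libraries did not overlap. The cytochrome b5 reductase *Cyb5r3* stayed just under the fold cutoff across birth (log2 fold change 0.96), whereas the mitochondrial reductase *Fdxr* was lower at P5 (log2 fold change -0.56, edgeR FDR = 0.00394). Of 14 tested transcription factors of P450 genes, 3 rose (*Ahr*, *Vdr* and *Rxrg*) and 1 fell (*Rarb*) across birth, so 4 of 14 were called where 26.8% of all genes were, 1 fell (*Rxrg*) from E15.5 to E18.5, and 0 were called from P5 to P8. The liver factors *Hnf4a* and *Nr1i2* (PXR) reached at most 0.833 and 1.24 CPM, both in P8 replicate 2. Of the P450 genes with other names, *Tbxas1*, the thromboxane synthase, rose across birth (log2 fold change 2.096 ± 0.23 (SE), edgeR FDR = 4.81e-06), and *Ptgis*, the prostacyclin synthase, was not called in any comparison.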

How the data were processed

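The authors extracted RNA with an RNeasy Plus kit, prepared TruSeq libraries, sequenced paired ends, mapped them uniquely to mm10 with TopHat2 2.1.1 and Bowtie2 2.3.4 and counted them per Gencode gene with HTSeq 0.10.0, which gave the deposited read counts (16152 genes) and, per the file headers, CPM values (51825 genes) relative to all mapped reads. Whole reads were recovered from the CPM (100% of values above 0 whole within 0.01, all 16152 genes equal to the counts). Gene symbols came with 16136 of the identifiers. The 15994 genes reaching 1 CPM in 3 or more libraries were fitted in 1 edgeR 4.0.16 quasi-likelihood model of all 12 libraries after TMM normalization, and p-values were adjusted by Benjamini-Hochberg over all of them (FDR). The fit was tested on simulated data (172 of 200 genes changed by 1.5 on the log2 scale recovered and 3 unchanged genes called, E18.5 to P5, 15802 genes in the step). Positions and exon lengths came from Gencode M21 (GRCm38) and promoters from RefSeq. Values were given in every library for members called in any comparison or with a mean of at least 10 CPM. Alternatives were RLE factors, library size only, DESeq2 1.42.0, no filter, 6-library fits, a replicate block, FDR alone, leaving out each library and, chosen after seeing the data, leaving out 2 libraries or fitting recovered reads. The members and lists were chosen with earlier results of these data known; the brown fat, stratified epithelium and upper airway lists and the motifs shown were picked after values were seen and other motifs searched. Splicing tables were not used here.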

Additional observations from a re-analysis of the deposited data

Results flagged for a closer look

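The 8 P450 genes below lie outside the deposited count table and were found in the wider CPM table with more than 3 reads in P8 replicate 2, at 3 times or more the level of every other library. In that library *Cyp2d26* was at 0.915 CPM, *Cyp3a11* at 0.702, *Cyp2c65* at 0.376, *Cyp3a44* at 0.31, *Cyp2c68* at 0.212, *Cyp2b9* at 0.147, *Cyp2j7* at 0.147 and *Cyp3a59* at 0.114 CPM. A count of 0 in a library allows up to 3 reads, worth 0.0482 to 0.0619 CPM in the 12 libraries, and this limit covers counting error only. *Cyp3a11*, *Cyp3a44*, *Cyp2c68* and *Cyp3a59* had no read before P8 nor in P8 replicate 1. Of the 18 hepatocyte markers 16 were highest in the same library. *Cyp2c65* was also read in P8 replicate 1 (5, 23 and 0 reads at P8).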

How the results depend on the processing

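The 26 calls of members in the 3 comparisons kept their direction under every alternative that gave a value (0 reversed), and 20 of them were called wherever they had a value: all 17 across birth (in 6 libraries *Cyp4f15* and *Cyp2a5* did not pass the filter), 1 of 3 before birth (*Cyp26b1*) and 2 of 6 from P5 to P8 (*Cyp2s1* and *Cyp4f15*, which had no value once a P8 library was left out). The filter set the direction of *Cyp4f15* from P5 to P8. *Cyp2a5* and *Cyp1a1* passed it only with the time-point at which they were higher in that step. *Cyp3a13* before birth and *Cyp2b10* from P5 to P8 lost their calls only where 2 libraries were left out, and *Cyp1a1*, *Cyp1b1* and *Cyp2a5* where the single libraries named with them were. Leaving out 1 library gave 2 to 4 calls from E15.5 to E18.5, 16 to 19 from E18.5 to P5 and 3 to 7 from P5 to P8, where 3 remained without P8 replicate 2. Without P8 replicates 1 and 2 the P5 to P8 count was 1, and without E15.5 replicates 1 and 2 the E15.5 to E18.5 count was 1; in both, the lone library is assumed to vary like the other groups. A fit of the 6 libraries of a comparison called 1 member from E15.5 to E18.5 and 15 and 7 in the later steps, and the FDR alone called 6, 23 and 7 (21.5%, 71.1% and 18% of all genes). In the 6-library fits *Cyp1a1* and *Cyp3a13* from E15.5 to E18.5, and *Cyp4f15* and *Cyp2a5* across birth, did not pass the filter and had no value. The call gained from P5 to P8 was a rise of *Cyp3a13* (log2 fold change 1.01, edgeR FDR = 0.0274). A replicate block called 4, 17 and 6; the replicate numbers do not pair the samples (correlations of same-numbered deviations -0.34 to 0.15). The call it added, a fall of *Cyp2a5* before birth, was also made by DESeq2. The mark for P8 replicate 2 gave 0 members at all 3 settings. Fitting whole reads of the CPM table called 3, 17 and 6 members. At this depth 3 reads were worth 0.0482 to 0.0619 CPM, so low embryonic levels such as those of *Cyp1a1* and *Cyp4f15* are limits.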

Other observations

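Outside the count table a few P450 genes were read at all or most time-points rather than in P8 replicate 2 alone. *Cyp8b1*, a hydroxylase of the bile acid route, was at 0, 0 and 0 CPM (E15.5), 0.164, 0.134 and 0.0366 (E18.5), 0.578, 0.516 and 0.542 (P5) and 0.493, 0.751 and 0.756 (P8), so that its 6 postnatal libraries lay above its 6 embryonic ones. *Cyp2c23*, an arachidonic acid epoxygenase, was at 0.355, 0.256 and 0.452 CPM (E15.5), 0.493, 0.325 and 0.22 (E18.5), 1.01, 0.578 and 0.542 (P5) and 0.513, 0.457 and 0.772 (P8). *Cyp2w1* was at 0.145, 0.157 and 0 CPM (E15.5), 0.0616, 0.211 and 0.0732 (E18.5), 0, 0 and 0.0657 (P5) and 0.636, 0.67 and 0.0329 (P8), high in the pair of P8 libraries that also held brown fat and stratified epithelium markers. *Cyp26a1*, another enzyme of retinoic acid breakdown, stayed below 0.4 CPM in every library. These genes were fitted in no comparison of the count table.

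The excluded club cell gene *Cyp2f2* was at 7.44, 4.68 and 3.34 CPM (E15.5), 10.4, 8.58 and 6.28 (E18.5), 148, 193 and 161 (P5) and 389, 456 and 416 (P8), with all postnatal libraries above all embryonic ones.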
